A study of Homo sapiens with 4 samples.

Results

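The genes described here are 40 genes of the endoplasmic reticulum (ER) that fold secreted and membrane proteins, form their disulfide bonds, remove those that fail to fold, or sense the load and switch on the others. They were chosen by name, with earlier results of these data known. Each was read from its probe set with a single gene symbol and the highest mean log2 intensity over the 4 arrays. Of the 40, 38 were measured, among 18377 genes in all: 12 chaperones and their partners, 10 disulfide enzymes, 11 genes of ER-associated degradation (ERAD) and 5 sensors and regulators. PDIA3, which is read by 2 probe sets shared with its pseudogene, and TXNDC5, which shares its probe set with neighbouring and read-through genes, have no probe set of a single symbol and were not analysed here. The series holds 4 Affymetrix whole-transcript arrays of MOLM-14, an established human acute myeloid leukemia cell line. In 2 samples the cells received the solvent DMSO and in 2 samples DZNep (3-deazaneplanocin A) at 2 µM, for 24 h, with no other treatment or engineered allele named in either group. DZNep is an inhibitor of S-adenosylhomocysteine hydrolase and is widely used to deplete the Polycomb methyltransferase EZH2. Both groups come from 1 cell line, and the titles name biological replicates, with nothing on separate cultures. The p-values therefore reflect the scatter among these arrays alone, and that scatter may be technical.

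Proteins that enter the ER are folded by chaperones and by enzymes that make and rearrange disulfide bonds, and those that do not fold are carried back to the cytosol and degraded, which is ERAD. When unfolded proteins build up, the membrane sensors IRE1 (gene ERN1), ATF6 and PERK (gene EIF2AK3) start the unfolded protein response. IRE1 splices the mRNA of XBP1 into the form that encodes an active transcription factor, ATF6 is cut to release one, and PERK slows translation while ATF4 and CHOP (gene DDIT3) are made. ATF6 and XBP1 raise the genes of ER folding and ERAD in part through the ER stress element, a promoter sequence. Cells that secrete much protein, such as plasma cells, depend on this response, and myeloid cells that make granule proteins use it as well.

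Marker genes were read to check the cell type. Of 10 leukocyte and myeloid markers, 8 were measured, with mean log2 intensities in DMSO of 7.52 to 12.24, and 6 of 8 markers of other cell types lay at 5.15 to 7.79, where 0 were called changed by limma (0 at an unadjusted p of 0.05). These ranges overlap, so level alone does not separate all markers. Among the myeloid markers LYZ and CSF1R were higher with DZNep, at log2 fold changes of 0.53 and 0.47, and FLT3 was lower, at −0.94. The other 5 were not called, with values from −0.38 for CD68 to 0.12 for PTPRC. The array medians of log2 intensity ran from 6.99 to 7.08. In a whole-culture RNA sample, fewer cells of a type and less RNA per cell cannot be told apart.

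The ER stress element is shown here because it is the promoter sequence through which ATF6 and XBP1 are known to act, and some of the members hold it. RefSeq's promoter table (GRCh38.p14) held 37 of the 40 genes, of which PDIA3, DERL1 and DERL3 were not found, and the 250 bases before each start were searched on both strands for exact letters. The ER stress element, CCAAT and CCACG with 9 bases between them, was found in 8 of the 37 members (21.6%). Over the 27305 genes in the table the share was 0.0916% (0.074% of 35116 promoters), and over the 14210 of them tested on the arrays 0.134%. Its second form, ATTGG and CCACG with 1 base between them, was found in 3 members (8.11%), in 0.0659% of genes and in 0.113% of the tested genes. Since the members are listed as genes of the response that acts through this element, their higher share describes the list and tests nothing. The 8 members hold 9 elements, listed here in the direction from CCAAT to CCACG with those letters in capitals and the spacer in lower case.

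HSPA5, chr9:125241391-125241409, minus strand: CCAATcggcggcctCCACG
CRELD2, chr22:49918554-49918572, minus strand: CCAATccgagttcgCCACG
ERO1B, chr1:236282183-236282201, plus strand: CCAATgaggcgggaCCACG
HSP90B1, chr12:103930216-103930234, plus strand: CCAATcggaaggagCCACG
HSP90B1, chr12:103930321-103930339, minus strand: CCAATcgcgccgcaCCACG
CALR, chr19:12938384-12938402, minus strand: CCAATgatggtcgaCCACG
PDIA6, chr2:10812853-10812871, minus strand: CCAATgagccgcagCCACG
CANX, chr5:179698778-179698796, plus strand: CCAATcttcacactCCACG
XBP1, chr22:28800603-28800621, minus strand: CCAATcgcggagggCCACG

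Counted from the start, the 9 elements lie between −243 and −34. HSP90B1 holds a pair of them in opposite directions, and the element of CANX lies at −151 to −133 from one of its starts in the table and at −189 to −171 from another. By class, 4 of 12 chaperones, 3 of 11 disulfide enzymes, 0 of 9 ERAD genes and 1 of 5 sensors and regulators hold the element. The 3 members with the second form are HYOU1, which has it at 2 places, SDF2L1 and HERPUD1. The UPR element, TGACG followed directly by TGG, was found in HYOU1, DNAJC10 and TXNDC5 (0.78% of all genes), and in HYOU1 it overlaps one copy of the second form. The composite site of ATF4, TGATG, any base and AAT, was found in 0 of 37 members and in 1.09% of all genes. With DZNep, 28 of the 36 measured members found there were called lower by limma, against 6.68% of all genes. Among the 28 were all 8 with the element and all 3 with its second form, while 17 hold neither. Most members were called lower with or without an element, and whether the element goes with the fall was not tested. These matches are letters in a window and do not show that a factor binds there.

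The 250 bases before the start are given for the 4 members with an ER stress element and the largest falls, for HYOU1 (added after its values were seen, as the member with the largest fall), and for WFS1 and ERN1, the pair of measured members without any of the 4 motifs and with the smallest changes. They are written in the direction of transcription, with capitals for the motif matches.

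HSPA5, chr9:125241344-125241593, minus strand: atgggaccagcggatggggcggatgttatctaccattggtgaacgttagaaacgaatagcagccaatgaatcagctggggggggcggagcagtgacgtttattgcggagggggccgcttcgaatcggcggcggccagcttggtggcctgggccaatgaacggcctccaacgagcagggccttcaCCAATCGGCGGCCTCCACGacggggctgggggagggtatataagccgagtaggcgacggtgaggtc
CRELD2, chr22:49918384-49918633, plus strand: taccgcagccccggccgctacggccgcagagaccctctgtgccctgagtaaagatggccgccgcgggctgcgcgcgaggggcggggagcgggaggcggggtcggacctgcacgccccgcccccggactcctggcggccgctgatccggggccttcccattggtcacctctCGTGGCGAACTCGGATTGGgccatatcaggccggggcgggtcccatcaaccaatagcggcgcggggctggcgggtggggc
ERO1B, chr1:236281959-236282208, minus strand: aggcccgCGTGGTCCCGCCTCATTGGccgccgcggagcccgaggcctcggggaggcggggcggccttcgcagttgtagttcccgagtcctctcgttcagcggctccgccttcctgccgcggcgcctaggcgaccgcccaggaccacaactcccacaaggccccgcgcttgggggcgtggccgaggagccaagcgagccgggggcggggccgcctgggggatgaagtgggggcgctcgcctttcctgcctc
HSP90B1, chr12:103930160-103930409, plus strand: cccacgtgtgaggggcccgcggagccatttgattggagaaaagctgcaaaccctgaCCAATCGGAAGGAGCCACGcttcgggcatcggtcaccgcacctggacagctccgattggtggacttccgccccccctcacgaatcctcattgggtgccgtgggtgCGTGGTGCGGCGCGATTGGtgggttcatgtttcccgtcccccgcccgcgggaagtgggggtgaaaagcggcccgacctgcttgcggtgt
HYOU1, chr11:119057206-119057455, minus strand: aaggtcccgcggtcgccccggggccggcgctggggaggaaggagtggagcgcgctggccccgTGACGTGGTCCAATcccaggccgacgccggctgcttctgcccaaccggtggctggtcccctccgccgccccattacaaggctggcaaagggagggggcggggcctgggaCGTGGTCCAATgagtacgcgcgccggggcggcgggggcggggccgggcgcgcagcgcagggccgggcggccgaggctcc
WFS1, chr4:6269600-6269849, plus strand: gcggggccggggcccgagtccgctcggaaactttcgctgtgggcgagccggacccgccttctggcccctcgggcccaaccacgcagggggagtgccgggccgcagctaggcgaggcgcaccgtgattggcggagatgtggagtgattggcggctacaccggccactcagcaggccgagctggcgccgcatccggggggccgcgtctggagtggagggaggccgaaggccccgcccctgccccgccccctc
ERN1, chr17:64130145-64130394, minus strand: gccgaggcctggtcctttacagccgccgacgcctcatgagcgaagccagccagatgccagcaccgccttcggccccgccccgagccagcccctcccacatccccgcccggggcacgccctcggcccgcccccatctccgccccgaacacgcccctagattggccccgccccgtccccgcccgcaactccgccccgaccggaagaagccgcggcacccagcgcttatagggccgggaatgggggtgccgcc

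**Figure D1:**
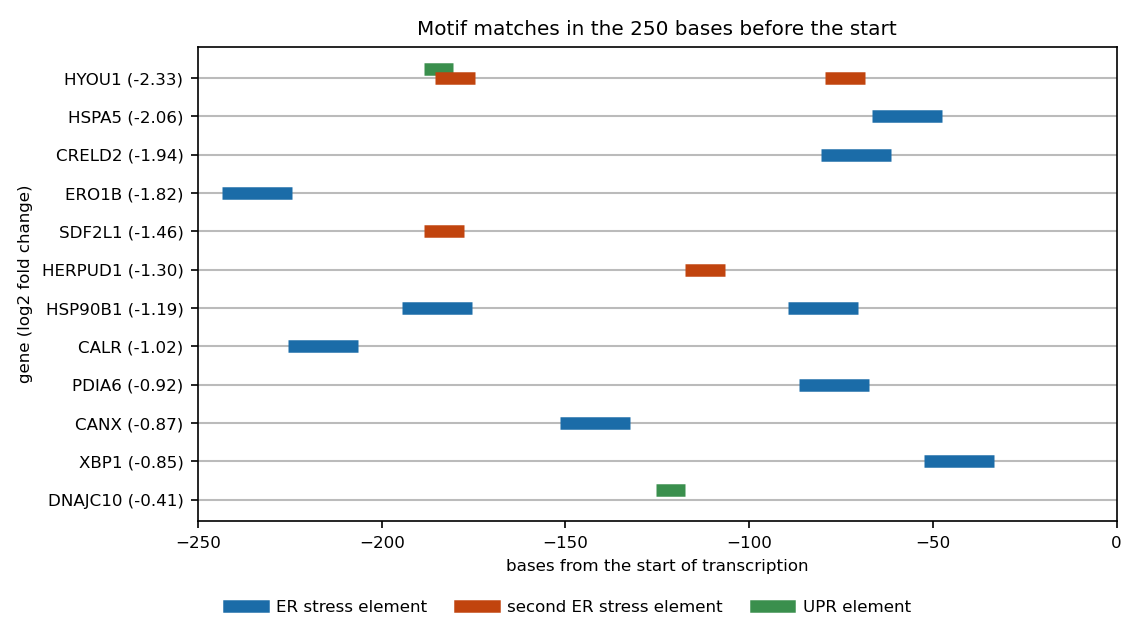
Position of the motif matches in the 250 bases before the start (horizontal axis, bases from the start of transcription) in the 12 measured members with a match, ordered by log2 fold change, which is given beside each name. The 11 members with either form of the ER stress element have log2 fold changes from −0.85 to −2.33, and DNAJC10, with the UPR element alone, has −0.41; for CANX the distance is from one of its starts.

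With DZNep, the ER folding genes were lower as a group, with every measured chaperone among the falling genes. Of the 38 measured genes, 29 fell and 0 rose (limma, adjusted p under 0.05 over all genes), 76.3%, and 33 had an unadjusted p under 0.05. Over the whole test 6.68% of all genes tested were called lower and 3.62% higher. The median log2 fold change was −0.86 over the members and 0.02 over all genes. At least 2-fold falls were called for 17 members and for 0.658% of all genes, and 16 members were among the 100 largest falls of the whole test. Because the members were chosen with earlier results of these data known, these counts describe the list and are no independent test. Both DZNep arrays lay below both DMSO arrays for 34 members, a pattern that 23.9% of all genes showed, and above both for 1 member, ATF6 (25.9% of all genes). With 2 arrays a group, precision is limited, and the smallest p of an exact permutation test is 0.333, so calls rest on limma. When 1 array was left out, 25 to 32 members were called lower.

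**Figure D2:**
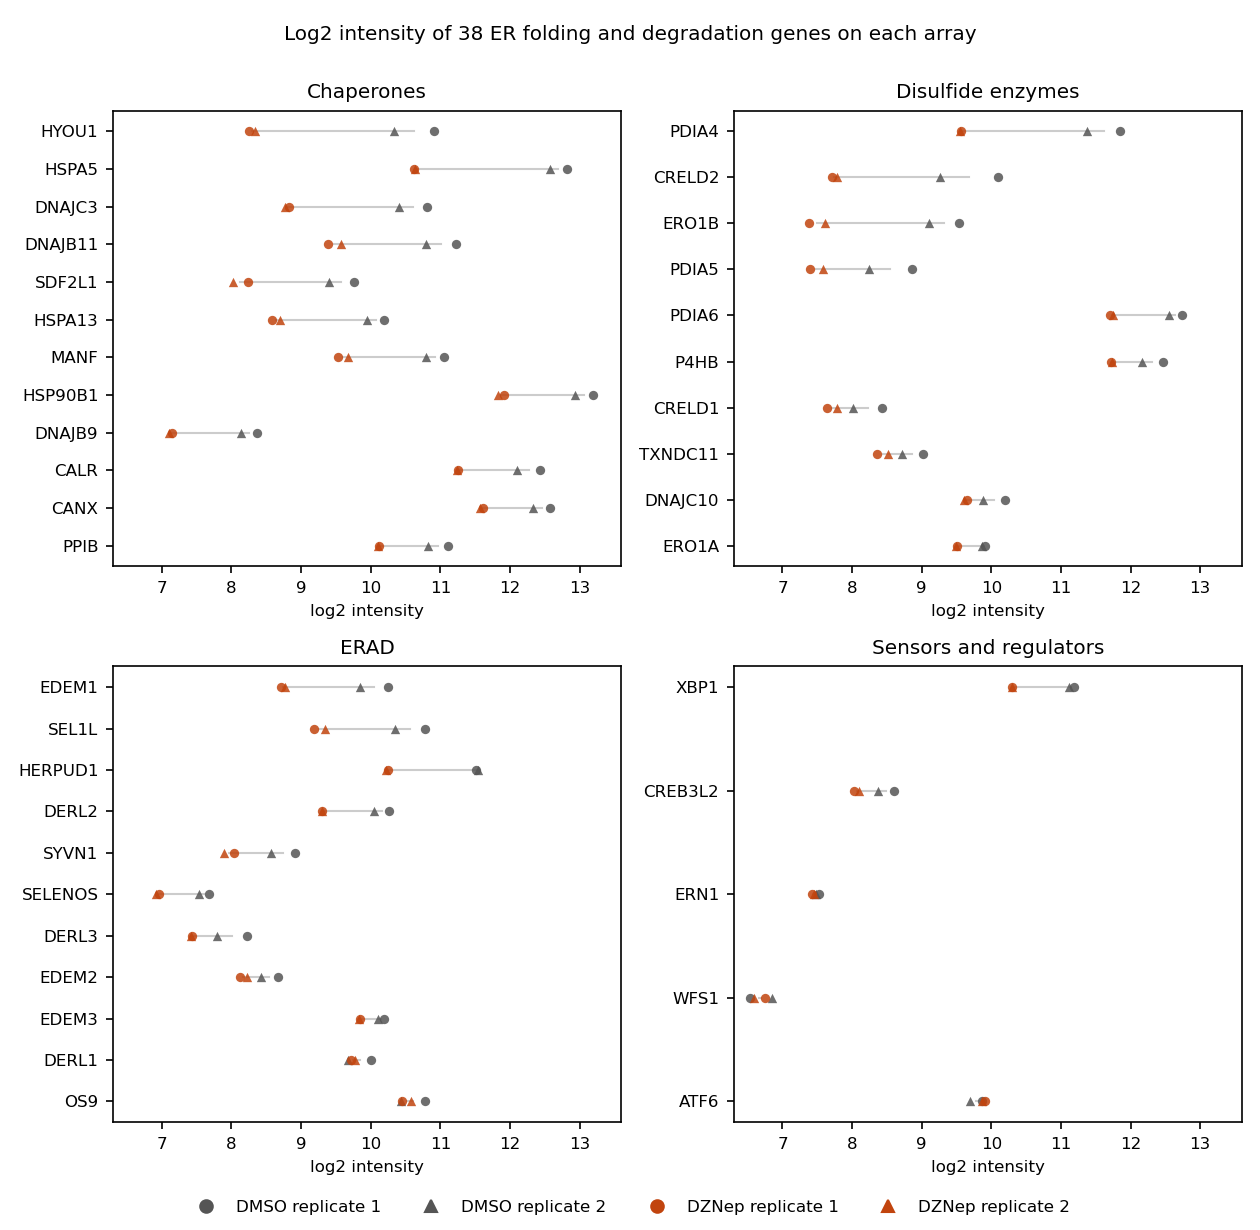
Log2 intensity (horizontal axis) of the 38 measured genes on each of the 4 arrays, by class, with circles for replicate 1 and triangles for replicate 2, grey for DMSO and red for DZNep. For all 12 chaperones and all 10 disulfide enzymes the DZNep points lie to the left of the DMSO points, while WFS1, OS9 and DERL1 overlap and ATF6 lies the other way.

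All 12 chaperones and partners fell, with log2 fold changes from −2.33 to −0.85 and a median of −1.37. HSPA5, known as BiP, the abundant Hsp70 chaperone of the ER lumen that also holds the sensors inactive, had log2 intensities of 12.82 and 12.57 with DMSO and 10.63 and 10.64 with DZNep. The DZNep arrays lay close together, far below the DMSO arrays, and the change was 4.18-fold (limma log2 fold change −2.06, SE 0.11, adjusted p = 1.91e-05). HYOU1, the large Hsp70-like protein that exchanges nucleotide on BiP, went from 10.92 and 10.33 to 8.26 and 8.34, 5.02-fold lower, the fourth largest fall of all genes (log2 fold change −2.33, SE 0.17, limma adjusted p = 9.02e-05). Its DMSO arrays differed by 0.58, and its SE was larger than that of HSPA5. HSP90B1, the Hsp90 of the ER, read 13.20 and 12.93 with DMSO and 11.92 and 11.83 with DZNep, 2.29-fold lower.

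Partners of BiP and the other chaperones of the class fell beside it. DNAJC3, a J-protein that also inhibits the kinase PERK, went from 10.81 and 10.41 to 8.82 and 8.77 (log2 fold change −1.81, SE 0.13, limma adjusted p = 9.53e-05). DNAJB11, a soluble J-protein of the lumen, had −1.53, and DNAJB9, the J-protein that helps to keep IRE1 off, had −1.14. SDF2L1, which works with DNAJB11, had −1.46, MANF, a secreted and ER-resident binding partner of BiP, had −1.32, and HSPA13, another Hsp70 relative, had −1.43. The lectin chaperones, which hold glycoproteins through their sugars, changed less: CALR went from 12.44 and 12.10 to 11.26 and 11.24, 2.03-fold lower, and CANX from 12.58 and 12.33 to 11.61 and 11.57, 1.82-fold lower. PPIB, a prolyl isomerase that takes part in collagen and antibody folding, had the smallest fall of the class, −0.85. The adjusted p of the 12 genes lay between 1.91e-05 and 0.00176 (limma), and all 12 were also called when any 1 array was left out.

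The disulfide enzymes fell less evenly. Of 10 measured, 8 fell and 0 rose, with a median log2 fold change of −0.75 and a range of −2.06 to −0.39. PDIA4, a protein disulfide isomerase found with BiP complexes, read 11.85 and 11.38 with DMSO and 9.57 and 9.55 with DZNep, 4.16-fold lower (log2 fold change −2.06, SE 0.14, limma adjusted p = 8.38e-05). CRELD2, a secreted ER stress protein, went from 10.10 and 9.27 to 7.71 and 7.78 (log2 fold change −1.94, SE 0.22, limma adjusted p = 0.000722), with a gap of 0.83 between its DMSO arrays, the widest of any member. ERO1B, one of the paired oxidases that recharge the isomerases, went from 9.53 and 9.10 to 7.38 and 7.61, 3.54-fold lower.

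ERO1A, the other oxidase, moved far less. Its log2 intensities were 9.91 and 9.87 with DMSO and 9.51 and 9.49 with DZNep, which is −0.39 (limma adjusted p = 0.029), a call lost when DMSO replicate 1 (adjusted p = 0.058) or either DZNep array (0.189 without the first, 0.224 without the other) was left out. The isomerases PDIA5 and PDIA6 fell by 1.06 and 0.92 on the log2 scale, and P4HB, the founding isomerase that is also a subunit of prolyl hydroxylase, by 0.59, with −0.54 in its other probe set. CRELD1, the membrane-bound relative of CRELD2, had −0.51 and just passed (limma adjusted p = 0.0481). Without DMSO replicate 1 it had −0.30 (adjusted p = 0.133), and without DZNep replicate 1 it had −0.44 (0.116). TXNDC11, a membrane thioredoxin protein, and DNAJC10, a reductase that opens disulfides before ERAD, missed the threshold at −0.43 and −0.41 (limma adjusted p of 0.056 and 0.0636), although no DZNep array overlapped a DMSO array. Both passed under several other settings, and both passed without DMSO replicate 2, at −0.57 each (0.0201 and 0.0127), and TXNDC11 also passed without DZNep replicate 2, at −0.51 (0.0466).

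**Figure D3:**
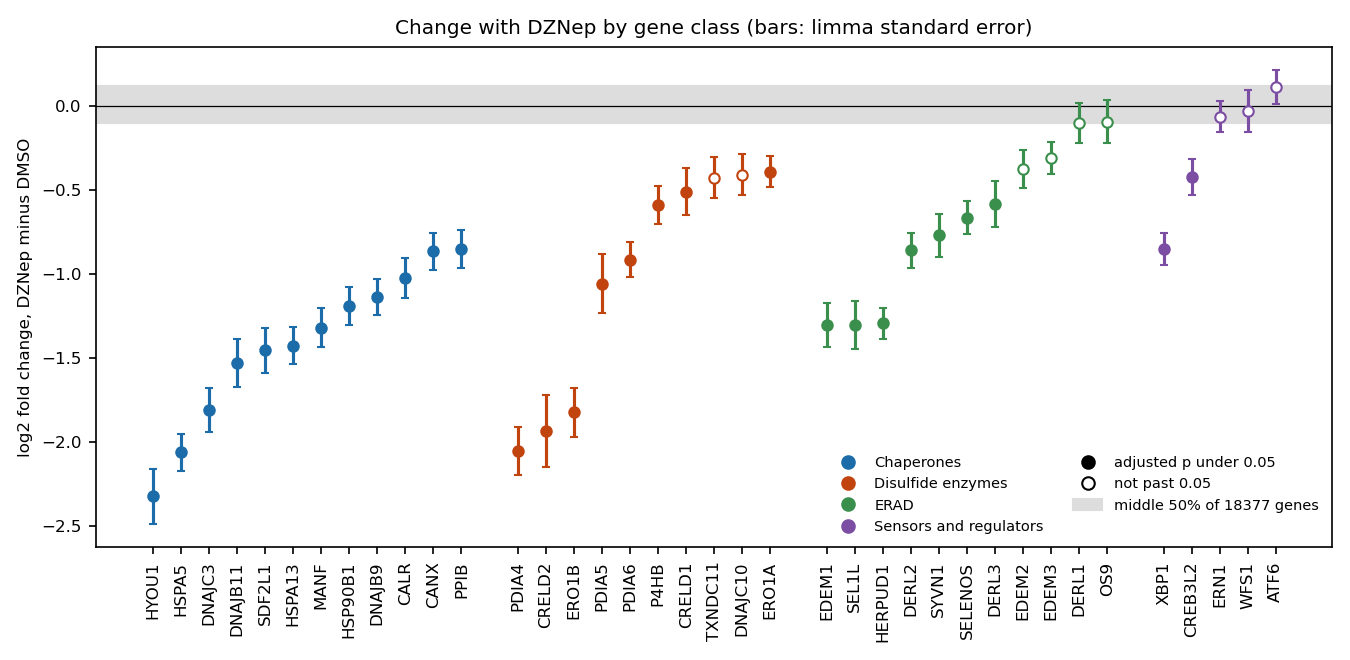
Log2 fold change (DZNep minus DMSO, vertical axis) with limma's standard error for each measured gene, ordered within its class; filled points passed an adjusted p of 0.05 and the grey band holds the middle 50% of all 18377 genes. Every chaperone is filled, 8 of 10 disulfide enzymes and 7 of 11 ERAD genes are, and 3 of 5 sensors and regulators lie near 0.

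Among the ERAD genes, 7 of 11 fell and 0 rose, with a median log2 fold change of −0.67. EDEM1, a mannosidase-like protein that marks glycoproteins for removal, read 10.24 and 9.85 with DMSO and 8.71 and 8.77 with DZNep (log2 fold change −1.31, SE 0.13, limma adjusted p = 0.000413). SEL1L, the adaptor that holds the ubiquitin ligase complex together, went from 10.79 and 10.35 to 9.18 and 9.34 (−1.31, SE 0.14, adjusted p = 0.000639). HERPUD1, a membrane scaffold of the same complex, went from 11.51 and 11.55 to 10.25 and 10.22, 2.45-fold lower, and its DMSO arrays nearly coincided.

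The ubiquitin ligase itself, SYVN1 (Hrd1), fell by 0.77 on the log2 scale, and SELENOS, a selenoprotein that recruits the p97 ATPase, by 0.67. The derlins, membrane proteins of the exit channel, differed among themselves. DERL2 went from 10.27 and 10.05 to 9.30 and 9.30 (log2 fold change −0.86, limma adjusted p = 0.00116). DERL3 had −0.58 (adjusted p = 0.0287), a call lost without DMSO replicate 1, where its value was −0.36 (0.061). DERL1 read 10.01 and 9.68 with DMSO and 9.72 and 9.77 with DZNep, so its groups overlapped (log2 fold change −0.10, adjusted p = 0.724). The lectin OS9, which reads the sugar mark, overlapped too, at 10.79 and 10.44 against 10.46 and 10.59 (−0.09, adjusted p = 0.761). EDEM2, which makes the first mannose cut, and EDEM3, which makes further cuts, had −0.37 and −0.31 and missed the threshold (limma adjusted p of 0.0644 and 0.0714), with the DZNep arrays below the DMSO arrays for both. EDEM2 passed without DMSO replicate 2, at −0.49 (adjusted p = 0.0237).

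Of 5 sensors and regulators, 2 fell and 0 rose, with a median log2 fold change of −0.06, or −0.19 without DMSO replicate 1. XBP1, the transcription factor activated by splicing, read 11.19 and 11.11 with DMSO and 10.30 and 10.29 with DZNep, 1.81-fold lower (log2 fold change −0.85, SE 0.09, limma adjusted p = 0.000682). Its 1 probe set gives 1 value for the gene and does not separate the spliced from the unspliced form. ERN1 (IRE1), the enzyme that splices it, read 7.52 and 7.48 against 7.42 and 7.45, a log2 fold change of −0.06 (SE 0.09, adjusted p = 0.785). The DMSO mean of ERN1, 7.50, lies within the range of the markers of other cell types (5.15 to 7.79), so a change may be understated. ATF6 read 9.86 and 9.69 with DMSO and 9.91 and 9.86 with DZNep, 0.12 higher (SE 0.10, adjusted p = 0.602), the single member with a positive value. These probe sets read mRNA, not cleavage or phosphorylation of the sensors.

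The remaining regulators of the class, CREB3L2 and WFS1, changed less than XBP1. CREB3L2, a membrane-bound transcription factor related to ATF6, was 0.42 lower on the log2 scale, at −0.42 (limma adjusted p = 0.0378), and the call was lost when DMSO replicate 1 (−0.31, 0.101) or either DZNep array (−0.39, 0.206 without the first; −0.46, 0.0914 without the other) was left out. In each of these cases 1 of the 5 sensors and regulators was called. WFS1, an ER membrane protein that restrains ATF6, read 6.54 and 6.85 against 6.75 and 6.59 (−0.03, adjusted p = 0.94), and its groups overlapped. Its level too lies within the range of the markers of other cell types, so a change may be understated. PERK, the third sensor (EIF2AK3), differed from ERN1 and ATF6: it went from 8.90 and 8.55 to 7.47 and 7.67, 2.23-fold lower (log2 fold change −1.15, SE 0.13, adjusted p = 0.000792).

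Members of the same class were compared through their ratio on each array, in 10 pairs chosen after the values were seen. The log2 ratio of ERO1B to ERO1A was 1.43 lower with DZNep than with DMSO, a change of −1.43 (SD 0.27 in DMSO and 0.17 in DZNep, n = 2 arrays each). The ratio of CRELD2 to CRELD1 changed by −1.43 (SD 0.29 and 0.04) and that of PDIA4 to P4HB by −1.47 (SD 0.12 and 0.02). With DZNep, ERO1B, CRELD2 and CRELD1 read within the range of the markers of other cell types, so the sizes of their changes are less certain. For HSPA5 against HSP90B1 the change was −0.87 (SD 0.01 and 0.07), for DERL2 against DERL1 −0.76 (SD 0.08 and 0.05), and for EDEM1 against EDEM2 and EDEM3 −0.93 and −0.996. XBP1 changed by −0.97 against ATF6 and by −0.79 against ERN1, and PDIA4 by −1.14 against PDIA6. Since each pair sets a member with a larger change against one with a smaller change, these values describe the size of the gap and test nothing.

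Further genes of the pathway were taken from lists that, like the members, were drawn up with earlier results of these data known. For comparison, 6.68% of all genes were called lower and 3.62% higher, with a median log2 fold change of 0.02. Of the PERK arm, which holds ATF4, CHOP and other genes linked to this arm, 6 of 14 fell and 1 rose, with a median of −0.40. DDIT3, which encodes CHOP, went from 11.57 and 11.26 to 7.44 and 7.70, 14.4-fold lower (limma log2 fold change −3.85, adjusted p = 4.66e-06). Its DZNep mean, 7.57, lies within the range of the markers of other cell types, so this fall may be understated. TRIB3, a pseudokinase induced by CHOP, had −1.73, and ASNS, asparagine synthetase, had −1.69. The mRNA of ATF4 itself was 0.36 higher (adjusted p = 0.0473), and this call was lost when any 1 array was left out (0.0666 to 0.488), leaving 0 rising genes in the list. Among other sensors and the proteases that release them, 3 of 11 fell and 0 rose: EIF2AK3, MBTPS2 (the site-2 protease that cuts ATF6) at −0.57 and CREB3L4, an ATF6 relative, at −0.49, lost without DMSO replicate 1 (−0.39, 0.0613) or DZNep replicate 2 (−0.44, 0.118). Of 5 substrates of IRE1's mRNA decay, limma called 0 (1 at an unadjusted p of 0.05), with SPARC, a secreted matrix protein, at −0.31 (adjusted p = 0.0814). The DMSO means of these substrates ran from 6.51 to 8.65, partly within the range of the markers of other cell types, so changes may be understated.

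Other ER folding and ERAD genes were counted in the same way, beside 6.68% of all genes called lower and 3.62% higher. Of 28 other folding genes 9 fell and 1 rose, with a median of −0.19. They included SIL1, the other nucleotide exchange factor of BiP, at −0.83, UGGT1, which sends misfolded glycoproteins back to the lectin chaperones, at −0.74, and ERP44, which retains oxidases in the early secretory pathway, at −0.70 (−0.46 without DMSO replicate 1). The count of 1 rising gene went to 0 without either DZNep array. Of 22 other ERAD genes 5 fell and 0 rose, with a median of −0.12, and the count was 2 when DMSO replicate 1 was left out and 1 when either DZNep array was. ERLEC1, a lectin like OS9, had −0.65. ERLIN2, a membrane scaffold for ERAD substrates, had −0.49, and its call was lost when DMSO replicate 1 (adjusted p = 0.055) or either DZNep array (0.0596 without the first, 0.0678 without the other) was left out. UBE2J1, the ubiquitin-conjugating enzyme of the Hrd1 complex, had −0.44, with its call lost without the same arrays (0.062, 0.0989 and 0.129).

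The nearest gene groups outside the members had negative medians too. Over all genes the median was 0.02, with 6.68% called lower and 3.62% higher. Of 34 genes of ER entry, glycosylation and export, 16 fell and 0 rose, with a median of −0.39. SEC11C, a catalytic subunit of signal peptidase, had −1.22 (−0.79 without DMSO replicate 1), SEC24D, a cargo adaptor of COPII vesicles, −1.07, and LMAN1, a cargo receptor for glycoproteins, −1.001. Of 27 cytosolic and mitochondrial chaperones, 8 fell and 1 rose, with a median of −0.25, and the lower count was 5 without DZNep replicate 1 and 4 without DZNep replicate 2, while 2 rose without DMSO replicate 1. The leading falls there were in mitochondrial chaperones, HSPA9 at −0.77, HSPD1 at −0.70 and DNAJA3 at −0.58. All members and these lists share the same 4 arrays.

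**Figure D4:**
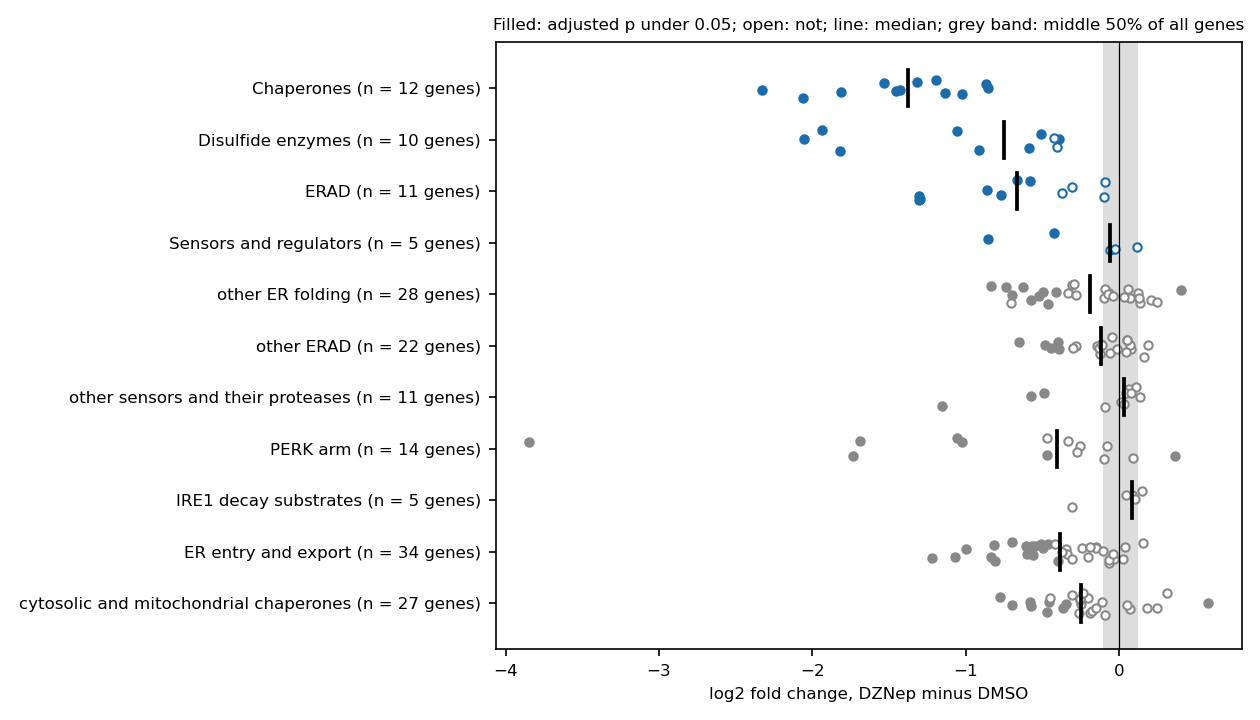
Log2 fold change (DZNep minus DMSO, horizontal axis) of each measured gene in the 4 classes (blue) and in 7 further lists (grey), with filled points past an adjusted p of 0.05, a black line at the median and a grey band for the middle 50% of all genes. The chaperones have a median of −1.37 with every point left of the band, the sensors and regulators one of −0.06, and the point at −3.85 in the PERK arm is DDIT3.

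The DMSO arrays differed in the level of these genes, and the DZNep arrays hardly did. DMSO replicate 1 read higher than DMSO replicate 2 for 36 of 38 members, with a median difference of 0.29, while 47.3% of all genes and 72.3% of the brightest 25% of genes lay that way. Of the members, 27 belong to that brightest group. The exceptions were HERPUD1 at −0.04 and WFS1 at −0.32. Between the DZNep arrays 19 of 38 members lay each way, with a median difference of −0.00 and a largest gap of 0.224 in size, for ERO1B. Over all members, a wider gap between the DMSO arrays went with a larger fall (Pearson r = −0.54, Spearman rho = −0.51 across the 38 genes, against −0.19 and −0.19 across all genes). By class, r was −0.64 for the 12 chaperones, −0.66 for the 10 disulfide enzymes, −0.26 for the 5 sensors and regulators and 0.03 for the 11 ERAD genes, so the pooled value does not describe the ERAD genes. These are a description of genes read on the same 4 arrays, which are not independent replicates. The gap and the fall both use the DMSO arrays, so a high reading on DMSO replicate 1 alone widens both. The relation therefore tests nothing. The source of the gap was not tested. Without DMSO replicate 1 the median of the members was −0.75 with 25 called lower, and without DMSO replicate 2 it was −0.99 with 32 called lower.

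**Figure D5:**
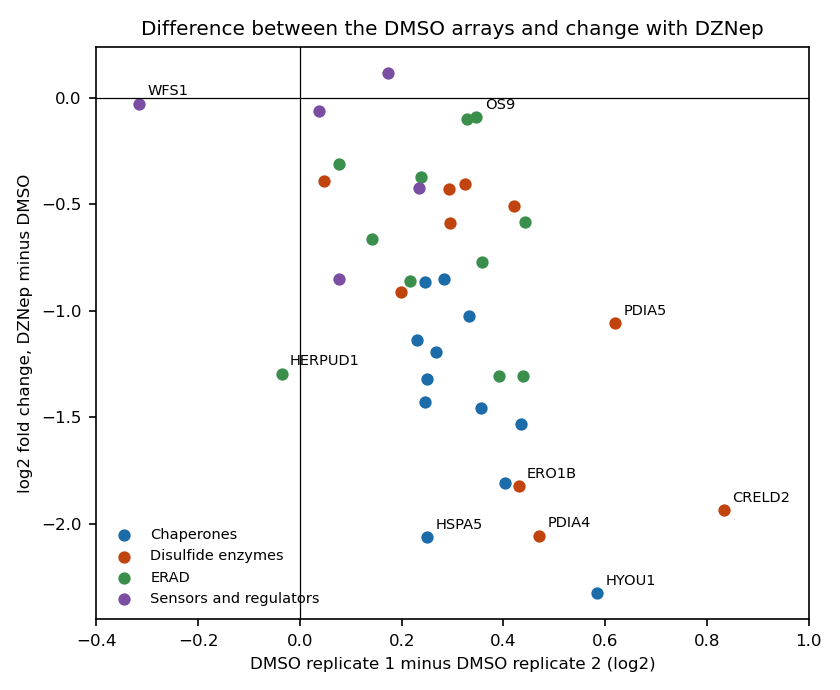
Difference between the DMSO arrays (replicate 1 minus replicate 2, log2, horizontal axis) against the log2 fold change with DZNep (vertical axis) for the 38 measured genes, coloured by class. Of the points, 36 lie right of 0, led by CRELD2 at 0.83 and PDIA5 at 0.62, and HERPUD1 fell by 1.30 with almost no gap.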

How the data were processed

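Total RNA of MOLM-14 cells was labelled with biotin for Affymetrix whole-transcript arrays, per the labels' protocols. Groups and replicate numbers come from the sample titles, which call the DMSO samples control. The deposited table gives 1 linear intensity per probe set and array, which the authors summarised by RMA according to the submitters' processing notes. Its version is not given in the sources used here. Intensities were turned to log2 with no pseudocount, filter or further normalization. Probe sets were named from the given platform annotation: of 28869, 19310 have 1 symbol, 1752 several and 7807 are not listed, which gave 18377 genes.

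All genes were tested in 1 fit using limma 3.58.1 under R 4.3.3 (lmFit, then eBayes, with group as the only term, two-sided) and Benjamini-Hochberg adjustment over all genes, at a threshold of 0.05. The fit had 2 residual and 7.18 prior degrees of freedom. It and the motif search were tested on simulated data. The members and lists were chosen with earlier results of these data known. All measured members are named, and of each further list up to 3 called genes with the largest change, or the 1 largest where none was called, beside EIF2AK3, ATF4 and DDIT3. Alternatives were a replicate block, a filter on the dimmest 25% of genes, normalization by array medians, by quantiles or by cyclic loess, a variance trend on intensity (plain or robust), the mean over probe sets, 16 subtracted before log2, treat against 1.5-fold, and leaving out each array.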

Additional observations from a re-analysis of the deposited data

How the results depend on the processing

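All 12 chaperones stayed lower under every alternative except treat, a stricter test against a 1.5-fold change, which called 9 of them. Under treat 14 members were called lower, with 3 disulfide enzymes, 2 ERAD genes and 0 sensors and regulators, beside 73 lower and 37 higher genes of all tested, and 3 lower and 0 higher over the 7 further lists together (47 and 3 in the reported test). With 16 subtracted before log2, 25 members, 1 sensor or regulator and 1 higher gene of the further lists were called, and with an intensity trend, robust or not, 33 members and 5 higher genes of those lists. When 1 array was left out, all genes gave 734 to 1662 lower and 336 to 776 higher calls, the sensors and regulators 1 to 2 lower, and the further lists 31 to 58 lower (31 without DZNep replicate 2) and 1 to 3 higher (1 without either DZNep array). A lone sample is then assumed to vary like the other group. Values near 0 changed sign when 1 array was left out: DERL1 ranged from −0.26 to 0.064 and OS9 from −0.27 to 0.081 (both highest with DMSO replicate 1 left out), and WFS1 from −0.19 to 0.13 (above 0 when DMSO replicate 2 or DZNep replicate 2 was left out). The replicate numbers are not shown to pair the arrays, since deviations of same-numbered arrays correlated at −0.219 over genes; with the replicate block 32 members were called lower. A crossed block, added after seeing the data, called 33 members lower and 1034 genes higher. Of members not called, TXNDC11, DNAJC10 and EDEM2 passed with the replicate block (limma adjusted p of 0.0146, 0.0218 and 0.0419), without the dimmest 25% of genes (0.0386, 0.0443 and 0.0461), under the trend (0.0184, 0.0108 and 0.0319) and with the crossed block (0.00954, 0.0231 and 0.0192). TXNDC11 and EDEM2 also passed under quantile (0.0378 and 0.0419) and cyclic loess (0.0452 and 0.0464) normalization. EDEM3 passed under the trend (0.0114, and 0.0116 in its robust form) and the crossed block (0.0443). With 16 subtracted, CRELD1, ERO1A, DERL3 and CREB3L2 lost their calls (0.0941, 0.0684, 0.0624 and 0.0789). Outside the members, SPARC passed under quantile (0.0439) and cyclic loess (0.0493) normalization and the crossed block (0.0499). No dim gene was removed, and with no array background values here a dim gene's fold may be understated. This holds too for genes that end within the DZNep range of the markers of other cell types (means of 5.16 to 7.90). Among them are DDIT3 (7.57), EIF2AK3 (7.57), TRIB3 (7.72), CRELD2 (7.75), ERO1B (7.49), PDIA5 (7.49) and DNAJB9 (7.12).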

Other observations

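Genes outside the members that hold the ER stress element in the 250 bases before their start also included some that were lower with DZNep. Of 19 tested genes with the element, 8 are members, and among the other 11, chosen by the element alone, 4 fell and 0 rose (limma, against 6.68% of all genes called lower), with a median log2 fold change of −0.17. Some of these 11 share an element with a member or with each other, so their calls do not count separate elements. ALG12, a mannosyltransferase that builds the sugar chain for glycoproteins, had a log2 fold change of −1.01 (adjusted p = 0.00192), and its element, chr22:49918554-49918572 (GRCh38.p14), is the same one that CRELD2 holds, since both genes start from this stretch in opposite directions. FICD, the enzyme that attaches and removes AMP on BiP, had −0.99 (adjusted p = 0.00245). SERP1, an ER membrane protein that protects newly made membrane proteins, had −0.64 and EIF2A, a translation initiation factor, had −0.55, and these neighbours likewise share 1 element, at chr3:150546710-150546728. The remaining 7 were not called, with values from −0.33 for TRIM5 to 0.15 for NLRP4. Of 13 tested genes outside the members with the second form of the element, 2 fell and 0 rose, SHCBP1 at −0.87 and RUVBL2 at −0.50, and their median was −0.09. Outside the members, 15 of 127 tested genes with the UPR element fell and 3 rose (median −0.007), and 8 of 113 with the composite site of ATF4 fell and 5 rose (median 0.0084). Over all genes tested, 6.68% were called lower and 3.62% higher. Whether any of these motifs goes with a change was not tested.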
